A study of Mus musculus with 6 samples.

Results

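Tubulins are the building blocks of microtubules, and 10 tubulin genes were followed here in stem-like medulloblastoma cells. The 10 are 3 alpha-tubulin genes (Tuba1a, Tuba1b and Tuba1c) and 7 beta-tubulin genes (Tubb2a, Tubb2b, Tubb3, Tubb4a, Tubb4b, Tubb5 and Tubb6), chosen by symbol from the 24063 symbols in the files. Each was found, and each has 1 transcript row. RNA-seq was done on 6 libraries in 3 groups of 2, from cells of the genotype Math1-Cre; SmoM2, labelled as cerebellum tissue. Math1-Cre drives recombination in granule neuron progenitors, and SmoM2 is an active form of Smoothened, the transducer of the Hedgehog signal, so all 3 groups carry both. The control group carried a CRISPR guide named sgGal4-4 and is labelled WT. The guides of the other groups, sgMiat-6 and sgMiat-96, bear the name of Miat, a long noncoding RNA, and those cells are labelled Miat knockdown. Age, the form of CRISPR and whether a line is 1 clone are not in the labels, nor is it said that replicates are independent cultures. The p-values measure the spread between these libraries, which may be technical.

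A microtubule is a hollow polymer of alpha-beta tubulin dimers. Mammals make each subunit from several genes, the isotypes, which differ most in the acidic tail at the protein's end, where modifying enzymes and motors act. Neurons are known for Tubb3, the usual antibody marker of a young neuron, and for high Tuba1a, Tubb2a, Tubb2b and Tubb4a, the last of which is also made by oligodendrocytes. Tuba1b, Tuba1c, Tubb4b, Tubb5 and Tubb6 are made in most cell types, and Tubb5 is abundant in dividing neural progenitors. The first 5 are called neuronal isotypes here and the others general isotypes.

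The isotypes can be told apart only where their transcripts differ, so the last 75 bases of coding sequence are shown for the close pair Tubb2a and Tubb2b, and for Tubb5 and Tubb3. Capitals mark bases that differ from Tubb5 in a global alignment of the coding sequences. All are on GRCm38, in exon sequence of 4-exon genes, and run to the stop codon.
Tubb5: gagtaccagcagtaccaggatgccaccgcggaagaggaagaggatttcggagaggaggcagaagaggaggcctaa
Tubb2a: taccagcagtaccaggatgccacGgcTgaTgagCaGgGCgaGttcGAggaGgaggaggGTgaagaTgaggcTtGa
Tubb2b: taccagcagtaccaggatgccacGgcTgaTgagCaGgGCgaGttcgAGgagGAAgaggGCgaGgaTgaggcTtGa
Tubb3: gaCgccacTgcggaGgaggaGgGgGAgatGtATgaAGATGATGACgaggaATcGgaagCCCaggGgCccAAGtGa
In this stretch Tubb2a differed from Tubb5 at 16 bases, Tubb2b at 19 and Tubb3 at 32. Over whole coding sequences, 98.3% of bases were identical between Tuba1a and Tuba1b and 96.5% between Tubb2a and Tubb2b, against 81.4% between Tubb3 and Tubb5. Of the 50-base stretches in each transcript, 72.9% for Tuba1a, 73.8% for Tuba1b, 61% for Tuba1c, 49.6% for Tubb2a, 39.3% for Tubb2b and 50.9% for Tubb4b also occur in a transcript of another gene, for Tubb4b most often the pseudogenes Tubb4b-ps1 and Tubb4b-ps2. For Tubb3 and Tubb6 the share was 0%, for Tubb5 it was 0.115% and for Tubb4a 0.184%. How the counting treated reads that match several genes is not given in the sources used here, so the levels of the first 6 are uncertain and those of the last 4 rest on sequence of their own. In GENCODE M21 (GRCm38), Tuba1b (98931425 to 98934565), Tuba1a (98949837 to 98953703) and Tuba1c (99029891 to 99038110) lie close together on chromosome 15. Tubb3 spans 123411424 to 123422015 on chromosome 8, and Tubb4b spans 25222160 to 25224702 on chromosome 2. On chromosome 17 Tubb5 spans 35833921 to 35838306 and Tubb4a 57080066 to 57087782.

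Levels are given as CPM, counts scaled to a common library size with TMM factors. For comparing genes they are divided by transcript length in kilobases (CPM per kb). In the control cells Tuba1a stood highest, with 1021 and 1079 CPM per kb in the 2 libraries. Tubb5 followed with 686 and 718, and Tuba1b with 465 and 501. Tubb2b (203 and 193), Tubb4b (188 and 206), Tubb2a (164 and 163), Tubb6 (118 and 117) and Tuba1c (57.6 and 58.0) formed a middle range, in which only Tubb2b and Tubb4b overlapped as neighbours. Tubb3 was near the floor at 0.120 and 0.0882 CPM per kb, and Tubb4a had 0 counts in both libraries. The control cells thus held abundant transcript of 3 isotypes classed as neuronal while the neuron marker isotype was almost undetected.

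The cells were checked against defining markers. The neural stem cell genes Sox2 (213 to 286 CPM) and Nes (1007 to 1635 CPM) were present in all 6 libraries, while Prom1 had 1 count in all of them together. With both guides, taken as the mean of the 2 Miat groups against the control, Vim rose by 1.02 ± 0.09 on the log2 scale (SE). Sox9 and Msi1 fell by 0.72 ± 0.11 and 0.44 ± 0.13. Atoh1, the granule neuron progenitor gene also called Math1, had 0 counts in every library. Of the 7 progenitor markers 4 were tested and Zic1, Zic2 and Pax6 rose, and the summed level ran from 121 to 128 CPM (control), 202.5 to 224 (sgMiat-6) and 208 to 222 (sgMiat-96). Over all genes tested 66.5% were called with both guides, 33.1% higher and 33.4% lower. Of 7 astrocyte markers 6 were tested, and 1 rose (S100b, log2 fold change 1.66 ± 0.13, SE). The other 5 fell, among them Apoe (-4.22 ± 0.13) and Slc1a3 (-1.83 ± 0.09), named after their values were seen. The summed level of the 7 astrocyte markers ran from 3221 to 3321 CPM (control), 991 to 1036 (sgMiat-6) and 1069 to 1138 (sgMiat-96). The part of these markers in the tubulin results was not tested. Neuron markers other than Map2 were low: Stmn2 and Syt1 had 0 counts in every library, Rbfox3, Dcx, Snap25, Gap43 and Nefl stayed under 1 CPM, Nefm reached 1.43 CPM, and Elavl4 reached 7.50 CPM in the control and 1.29 CPM or less in the Miat libraries. Summed over all 10 neuron markers, nearly all of it Map2, the level ran from 753 to 755 CPM (control), 362 to 494 (sgMiat-6) and 284 to 290 (sgMiat-96). Miat itself had 140 and 139 counts in the control libraries and 0 in the 4 others. Total counts over the transcripts used ran from 18438909 to 19650274 per library.

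Against the control, 9 of the 10 tubulin genes rose and 1 fell in the mean of both Miat guides. Calls are from edgeR's quasi-likelihood test at an adjusted p under 0.05. Among all 13219 genes tested 66.5% were called in this comparison, 33.1% higher and 33.4% lower. A call on this mean need not hold for each guide, and Tuba1c was not called with sgMiat-6 alone (log2 0.19, edgeR adjusted p = 0.128). In 34% of genes all 4 Miat libraries were above both controls and in 33% below, and the 10 tubulin genes all had such separation, 9 above and 1 below. The median log2 fold change of the 10 was 0.71, beside 0.00 over all genes tested. The 5 neuronal isotypes counted 4 up and 1 down with a median of 1.03, and the 5 general isotypes 5 up with a median of 0.59. The wide range inside the neuronal class, from a fall in Tubb2b to the appearance of Tubb4a, is visible in the plot of levels by library. In bulk RNA, fewer cells of a kind and less RNA per cell cannot be told apart.

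**Figure D1:**
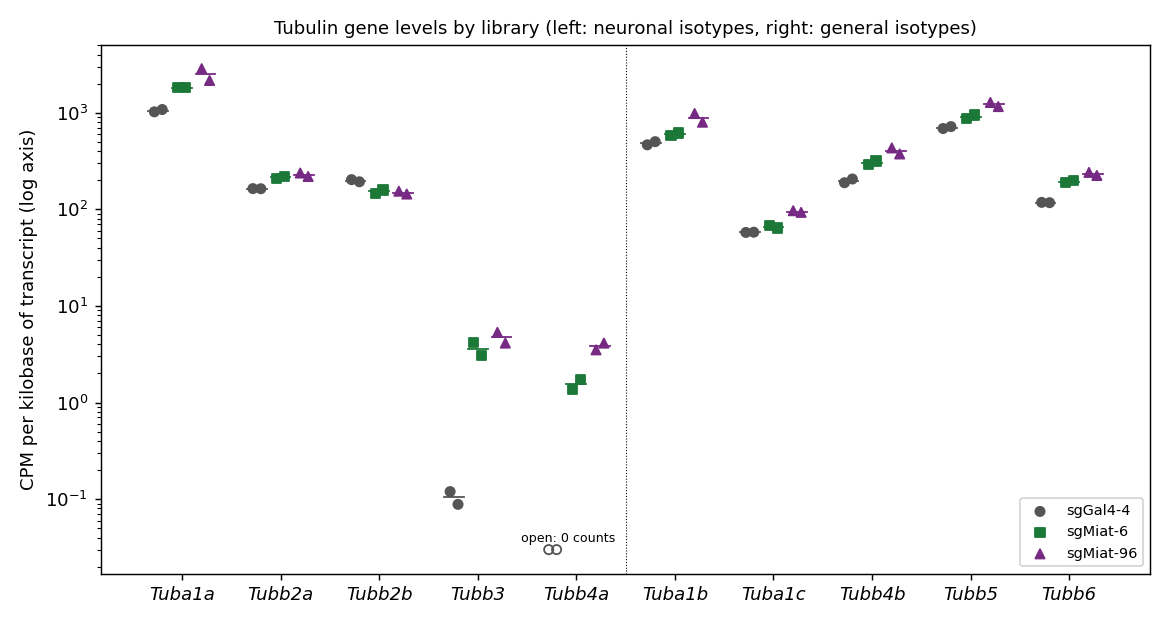
Level of each tubulin gene in each of the 6 libraries, as CPM per kilobase of transcript on a log axis, with neuronal isotypes left of the dotted line and general isotypes right of it. Each point is a library and each short line a group mean, and open points at the bottom stand for 0 counts. Tubb3 and Tubb4a are near or at 0 in the control and between 1.36 and 5.32 CPM per kb in the Miat libraries, far under the other 8 genes.

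Tubb3, the class III beta-tubulin of neurons, had 4 and 3 counts in the control libraries. It had 144 and 103 counts with sgMiat-6, and 163 and 123 with sgMiat-96. All Miat libraries lay far above both controls, while the 2 guides overlapped. In CPM this was a rise from 0.179 ± 0.0382 to 6.20 ± 1.33 and 8.13 ± 1.46 (SD, n = 2 each). The ratio of counts, corrected for library size, was 39.8 with both guides, with a 95% Clopper-Pearson interval of 19.2 to 99.5 that covers counting error only. The fitted log2 fold change was 5.26 ± 0.37 (SE, edgeR adjusted p = 6.72e-08). Even so, Tubb3 made up between 0.0700% and 0.0995% of the tubulin level in the Miat libraries, from 0.00291% and 0.00412% in the control. Of the 10 neuron markers 3 were tested, of which Nefm rose while Map2 and Elavl4 fell, where 33.1% of all genes tested rose and 33.4% fell. Nefm counts were few: 0 and 1 in the control, 25 and 28 with sgMiat-6, and 6 and 3 with sgMiat-96. Stmn2 and Syt1 were at 0 throughout.

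Tubb4a, the class IVa beta-tubulin of neurons and myelinating glia, had 0 counts in both control libraries. It reached 61 and 76 counts with sgMiat-6, and 139 and 159 with sgMiat-96. The 3 groups did not overlap. Against a floor of 3 counts over the control group, Tubb4a was at least 45.0-fold higher with sgMiat-6 and at least 111-fold higher with sgMiat-96 (edgeR adjusted p = 1.12e-06 and 7.02e-08). It was 2.46-fold higher with sgMiat-96 than with sgMiat-6 (log2 difference 1.30 ± 0.24 SE, edgeR adjusted p = 0.00262). This was the largest gap between the guides among the 10 genes. Of 7 oligodendrocyte markers 4 were tested and 3 rose with both guides (Olig1, Olig2 and Pdgfra), where 33.1% of all genes tested rose. The summed level of the 7 markers ran from 1910 to 1965 CPM (control), 3080 to 3220 (sgMiat-6) and 4721 to 4810 (sgMiat-96). Nearly all of it came from the lineage factor genes Olig1 and Olig2, and the myelin gene Mag had 0 counts in every library. Their part in the Tubb4a result was not tested.

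Tuba1a, the main alpha-tubulin of young neurons, stood at 1625 and 1716 CPM in the control. It was at 2879 and 2923 CPM with sgMiat-6, and at 4545 and 3428 with sgMiat-96. The 3 groups did not overlap, and the sgMiat-96 libraries lay further apart than those of the other groups. The rise was 1.74-fold with sgMiat-6 (log2 0.80 ± 0.13 SE, edgeR adjusted p = 0.000194) and 2.39-fold with sgMiat-96 (1.25 ± 0.13, adjusted p = 2.44e-06). In group means of CPM per kb, Tuba1a went from 1050 to 1823 and 2506, and the other neuronal isotypes stayed under 230.

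Tubb2a and Tubb2b, neighbouring class II beta-tubulin genes on chromosome 13 (34074274 to 34078007 and 34126748 to 34130466, minus strand), moved in opposite directions. Tubb2a stood at 262.9 and 262.1 CPM in the control, 337 and 350.0 with sgMiat-6, and 381 and 351 with sgMiat-96. Tubb2b stood at 390 and 370 CPM in the control, 283 and 305 with sgMiat-6, and 296 and 276.5 with sgMiat-96. Every Miat library was above both controls for Tubb2a and below both for Tubb2b. Tubb2a rose 1.35-fold with both guides (log2 0.43 ± 0.09 SE, edgeR adjusted p = 0.000673), and Tubb2b fell by 0.39 ± 0.09 on the log2 scale (adjusted p = 0.00131). With the counts of the 2 genes added, an alternative chosen after seeing the data, the log2 fold change was 0.00 (edgeR adjusted p = 0.967). With the trend over transcript length removed, Tubb2a was not called with both guides (log2 0.14, edgeR adjusted p = 0.0575). With sgMiat-96 alone the Tubb2a value ran from 0.06 to 0.54 over the reported fit and its alternatives, and the call did not hold in all of them. With sgMiat-6 alone, Tubb2a was not called without control replicate 1 or 2 (edgeR adjusted p = 0.0674 and 0.0724), and without control replicate 1 Tubb2b was called with neither guide (adjusted p = 0.112 and 0.0536).

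Among the general isotypes, Tubb5, the main beta-tubulin of dividing progenitors, stood at 1814 and 1899 CPM in the control. It was at 2283 and 2506 CPM with sgMiat-6, and at 3375 and 3060 with sgMiat-96. The groups did not overlap. The rise was 1.29-fold with sgMiat-6 (log2 0.37 ± 0.11 SE, edgeR adjusted p = 0.0104) and 1.73-fold with sgMiat-96 (0.79 ± 0.11, adjusted p = 2.28e-05). Without either control library the sgMiat-6 value was not called (adjusted p = 0.119 without replicate 1 and adjusted p = 0.0596 without replicate 2, in edgeR).

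Tubb4b, a broadly made class IVb isotype that is also used in cilia, and Tubb6, the class V isotype, also rose. Tubb4b stood at 301 and 330 CPM (control), 466 and 507 (sgMiat-6), and 691 and 599 (sgMiat-96). Tubb6 stood at 206 and 204 CPM (control), 328 and 344 (sgMiat-6), and 420.4 and 390.5 (sgMiat-96). For each gene every library of a Miat guide was above both controls. With both guides the log2 fold change was 0.83 ± 0.10 for Tubb4b and 0.85 ± 0.09 for Tubb6 (SE, edgeR adjusted p = 8.25e-06 and 2.71e-06). It was 0.58 ± 0.09 for Tubb5. With the length trend removed the 3 values were 0.53, 0.60 and 0.60, and the difference between genes was not tested. Of 4 markers of ciliated cells, whose summed level ran from 3.14 to 4.89 CPM (control), 10.2 to 10.7 (sgMiat-6) and 10.2 to 11.5 (sgMiat-96), 1 was tested. This was Foxj1, a factor gene of cells with motile cilia, which rose from 3.58 ± 1.05 to 10.3 ± 0.211 and 10.7 ± 1.00 CPM (SD, n = 2 each). Dnah5, a motor of such cilia, had 0 counts in every library, and the part of these markers in the Tubb4b result was not tested.

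Tuba1b and Tuba1c, the general alpha-tubulin isotypes, rose mainly with sgMiat-96. Tuba1b stood at 727 and 783 CPM in the control, 911 and 961 with sgMiat-6, and 1531 and 1245 with sgMiat-96. Its rise was 1.24-fold with sgMiat-6 (log2 0.31 ± 0.12 SE, edgeR adjusted p = 0.0375) and 1.84-fold with sgMiat-96 (0.88 ± 0.12, adjusted p = 2.09e-05). The sgMiat-6 call for Tuba1b was lost under total-count scaling (adjusted p = 0.0657), with the replicate number as a block (adjusted p = 0.0718), with the length trend removed (adjusted p = 0.171) and without 1 library in 3 of 6 cases, up to an adjusted p of 0.249 in edgeR without control replicate 1. Tuba1c stood at 113.9 and 114.6 CPM in the control, 134 and 126 with sgMiat-6, and 191 and 184 with sgMiat-96. It was called with sgMiat-96 (log2 0.71 ± 0.10 SE, edgeR adjusted p = 3.57e-05), and with sgMiat-6 the value was 0.19 ± 0.10 (adjusted p = 0.128). The 3 Tuba1 genes lie within chromosome 15 from 98931425 to 99038110, a chromosome whose 397 genes with at least 5 CPM had a median log2 fold change of -0.38 with both guides, beside 0.01 over 10024 such genes. The 3 thus rose on a chromosome where the median gene fell. Other chromosomes with members differed: the median was 0.14 on chromosome 8 (Tubb3) and 0.17 on chromosome 17 (Tubb5 and Tubb4a). It was -0.02 on chromosome 2 (Tubb4b) and -0.04 on chromosome 13 (Tubb2a and Tubb2b). The part of such shifts in the tubulin results was not tested.

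**Figure D2:**
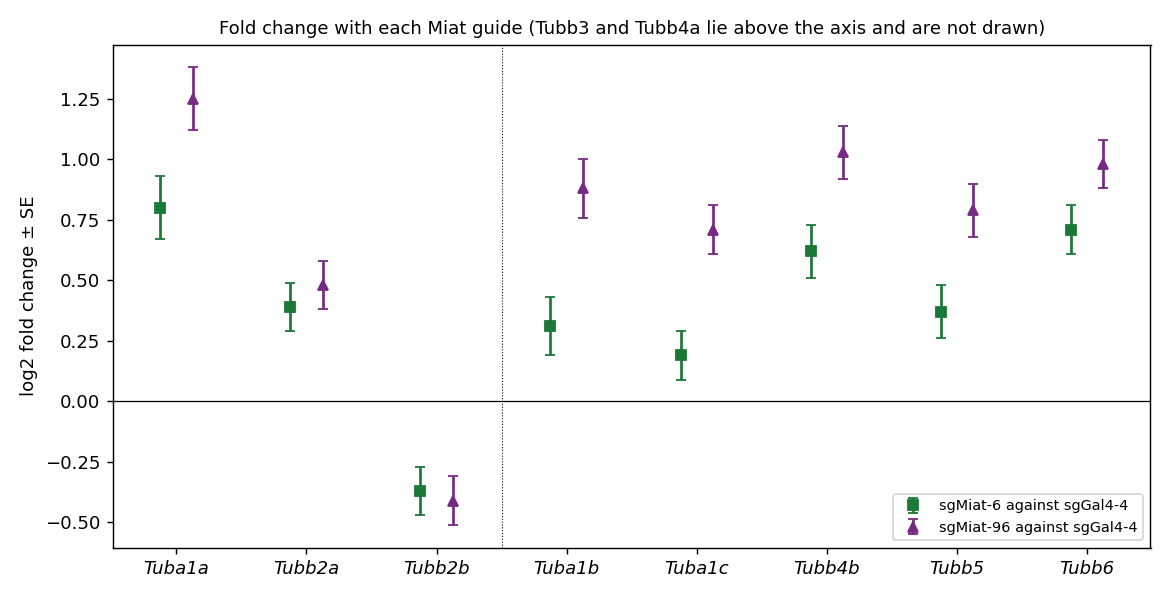
Log2 fold change against sgGal4-4 for 8 of the 10 tubulin genes, with sgMiat-6 as squares and sgMiat-96 as triangles, and bars for 1 SE of the fit. Tubb2b alone among the 8 lies under 0, and Tuba1a, Tuba1b, Tuba1c, Tubb4b and Tubb5 lie higher with sgMiat-96 by 0.41 to 0.57.

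Under sgMiat-6 alone, 8 of the 10 genes rose and 1 fell, where 53% of all genes tested were called, 26.9% higher and 26.1% lower. All 10 were separated from the control there, 9 above and 1 below, beside 40.3% of all genes above and 39% below. With sgMiat-96 the counts were 9 and 1, both for calls and for separation. In this comparison 68.2% of all genes were called, 34% higher and 34.2% lower, and 43.2% were separated above and 43.3% below. The 2 comparisons share the control libraries. Tested directly, 7 of the 10 were higher with sgMiat-96 than with sgMiat-6, where 36.7% of all genes were called, 17.9% higher and 18.8% lower. These were the 5 general isotypes, Tuba1a and Tubb4a. With Tubb2a, 8 were separated above and 0 below, beside 35.2% and 34.6% of all genes. The differences for Tubb3 (log2 0.39 ± 0.23 SE, edgeR adjusted p = 0.198), Tubb2a (0.09 ± 0.10, adjusted p = 0.493) and Tubb2b (-0.04 ± 0.10, adjusted p = 0.792) were not called. Without sgMiat-96 replicate 1 the number called was 2 (Tubb4a and Tuba1c), and without sgMiat-6 replicate 1 it was 4, with Tuba1a, Tubb4b and Tubb6 lost. Tubb6 was also lost without either control library. Against the control, sgMiat-6 had 5 genes called without control replicate 1 and 6 without control replicate 2. Between the guides, scaling by total counts alone gave 4 genes, and that scaling shifted the median of all genes between the guides to -0.14 on the log2 scale from 0.01.

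As a whole, the 10 genes took 0.573% and 0.607% of counts in the control, 0.787% and 0.814% with sgMiat-6, and 1.04% and 0.895% with sgMiat-96. These are percents of the counts over the transcripts used, not over all transcripts listed. The groups did not overlap, and the order was control, sgMiat-6, sgMiat-96. The summed CPM per kb was 2969 ± 93.4 (SD, n = 2) for the control, 4262 ± 136.5 for sgMiat-6 and 5726 ± 786 for sgMiat-96. The ratio of summed alpha to summed beta level was 1.14 and 1.17 in the control, 1.44 and 1.37 with sgMiat-6, and 1.67 and 1.43 with sgMiat-96. Tuba1a supplied most of the alpha level, and the log2 fold changes of Tuba1b (0.59) and Tuba1c (0.45) with both guides were below those of Tubb4b (0.83) and Tubb6 (0.85). With the length trend removed, the alpha values were 0.72 for Tuba1a (from 1.03), 0.28 for Tuba1b and 0.26 for Tuba1c. Among beta genes they were 0.60 for Tubb5 (from 0.58), 0.53 for Tubb4b, 0.60 for Tubb6, 0.14 for Tubb2a and -0.59 for Tubb2b. The ratio was not computed with the trend removed.

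The neuronal and general classes kept nearly equal shares of this larger total. Neuronal isotypes made up 47.8% and 47.3% of the summed CPM per kb in the control, 52.1% and 50.9% with sgMiat-6, and 51.8% and 48.8% with sgMiat-96. All Miat libraries were above both controls. With the length trend removed the group means were 49.0% in the control, 51.6% with sgMiat-6 and 48.6% with sgMiat-96, so the sgMiat-96 share then lay under the control. The 2 subunit classes went opposite ways. Tuba1a supplied 66.0% ± 0.205 (SD, n = 2) of the alpha level in the control, against 73.3% ± 0.374 and 71.7% ± 1.31 for sgMiat-6 and sgMiat-96. Neuronal isotypes supplied 26.2% ± 1.06 of the beta level in the control, against 21.0% ± 0.3875 and 17.2% ± 0.286. Within beta, Tubb2b went from 14.9% and 13.8% to between 6.55% and 8.62%, Tubb4b from 13.9% and 14.7% to between 17.1% and 18.4%, and Tubb5 stayed between 50.5% and 54.4%. In rank by mean CPM per kb, Tubb2b was number 4 of 10 in the control and number 7 with either Miat guide. Tubb4b went from number 5 to number 4, though in the control its libraries overlapped those of Tubb2b (means 197.1 and 197.8). These shares are descriptions with no test.

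**Figure D3:**
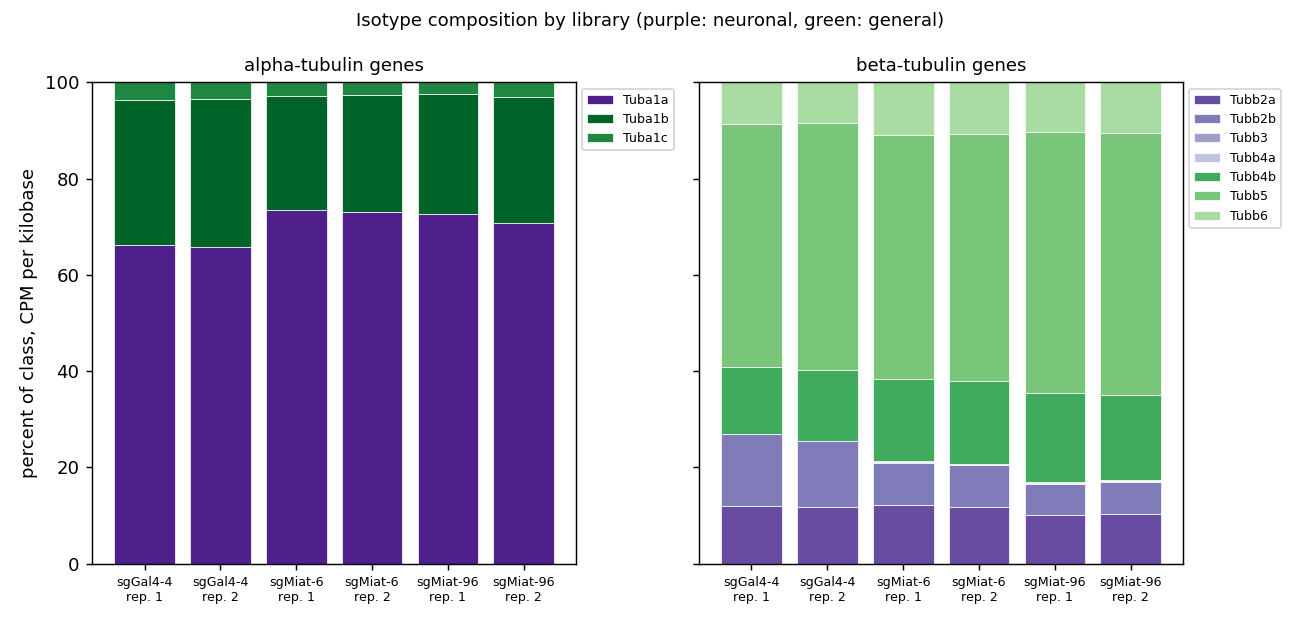
Percent of the summed alpha level (left) and beta level (right) that each gene supplied in each library, from CPM per kilobase. Purple marks neuronal and green general isotypes. The Tuba1a part of alpha is 65.9% to 66.1% in the control and 70.8% to 73.5% in the Miat libraries, and the neuronal part of beta is 25.5% to 27.0% and 17.03% to 21.3%.

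Of 10 further tubulin genes, 4 had enough counts to test. Tubg1, which encodes the gamma-tubulin that seeds microtubules, was called (log2 0.27 ± 0.09 SE, edgeR adjusted p = 0.0192), with 103 ± 0.672 CPM (SD, n = 2) in the control, 108 ± 7.37 for sgMiat-6 and 142 ± 9.11 for sgMiat-96. Its control and Miat libraries overlapped, and with sgMiat-6 alone it was not called (log2 0.08). Tubd1, Tube1 and Tuba4a were not called. Tuba3a, Tuba3b, Tuba8, Tubal3, Tubb1 and Tubg2 had between 0 and 43 counts in all 6 libraries together.

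A new tubulin chain is handed from prefoldin to the CCT chaperonin, which folds it, and then to cofactors that join alpha to beta. In the lists that follow, counts are for both guides against the control, as the mean of the 2 Miat groups. In that comparison 66.5% of all genes were called, 33.1% higher and 33.4% lower. The 8 folding cofactors counted 5 up and 0 down, a share called near that of all genes. With sgMiat-6 alone they counted 4 up and 0 down, where 26.9% of all genes were called higher and 26.1% lower. With sgMiat-96 alone they counted 6 up and 1 down (Tbce), where 34% of all genes were called higher and 34.2% lower. The median log2 fold change with both guides was 0.64, beside 0.00 over all genes tested. Tbcb and Tbca, which hold alpha and beta chains, rose by 0.96 ± 0.12 and 0.64 ± 0.11 (SE), and Tbcd, which takes part in joining them, by 0.93 ± 0.11. Ttc5, which recognises the start of nascent tubulin chains and triggers decay of their mRNA when free tubulin is in excess, rose by 0.64 ± 0.11 (edgeR adjusted p = 0.000146). Its level went from 25.6 ± 0.0601 CPM to 37.7 ± 0.807 and 42.4 ± 2.23 (SD, n = 2 each). The 3 alpha genes all open with the codons ATGCGTGAGTGC that encode the recognised chain start.

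The 8 CCT subunit genes counted 3 up and 1 down with a median of 0.08. Cct4, Cct3 and Cct6a rose by 0.34, 0.32 and 0.26 on the log2 scale, and Cct5 fell by 0.38. By guide, Cct6a was 0.46 with sgMiat-6 and 0.05 with sgMiat-96, where it was not called. Cct3 was not called with sgMiat-6 alone (0.23). The 6 prefoldin genes counted 2 up and 1 down with a median of 0.12: Pfdn6 and Pfdn1 rose by 0.69 ± 0.13 and 0.55 ± 0.11 (SE), and Pfdn2 fell by 0.67 ± 0.11. Neither chaperone list moved to the extent of the tubulin genes, whose median was 0.71. The 8 genes of the gamma-tubulin ring complex, the template from which microtubules grow, counted 1 up (Mzt2, 0.29 ± 0.12) and 2 down (Tubgcp6, -0.44 ± 0.10, and Tubgcp3, -0.27 ± 0.10), with a median of -0.02. By guide, Mzt2 was -0.02 with sgMiat-6, not called, and 0.61 with sgMiat-96. Tubgcp3 was not called with sgMiat-6 alone (-0.15).

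Enzymes that modify tubulin moved both ways. Of 14 writers 11 were tested, with 3 up, 5 down and a median of 0.01. Atat1, the alpha-tubulin acetyltransferase, rose from 1.075 ± 0.374 to 4.15 ± 0.263 and 5.90 ± 1.04 CPM (SD, n = 2 each). Ttll3 and Ttll1 rose by 1.26 ± 0.14 and 0.58 ± 0.13 on the log2 scale (SE). Ttll4, Ttll8, Ttll5, Ttll7 and Ttll12 fell by 1.92 ± 0.19, 1.07 ± 0.29, 0.97 ± 0.14, 0.60 ± 0.17 and 0.41 ± 0.10. With sgMiat-6 alone Ttll8 and Ttll7 were not called (-0.32 and -0.05). Direction by type of enzyme was not tested. Of 11 erasers 7 were tested, with 4 up, 1 down and a median of 0.31. Vash2, a carboxypeptidase that removes the last tyrosine of alpha-tubulin, had 0 and 5 counts in the control, 436 and 464 with sgMiat-6, and 384 and 405 with sgMiat-96. Its log2 fold change of 7.39 ± 0.36 (SE, edgeR adjusted p = 2.31e-09) was the largest in these lists. Its relative Vash1 rose by 0.43 ± 0.10, though its control and Miat libraries overlapped, and Agbl5, a deglutamylase, by 0.89 ± 0.13, while Agtpbp1, another deglutamylase, fell by 0.39 ± 0.12. With sgMiat-96 alone Vash1 was not called (0.12), and with sgMiat-6 alone Agtpbp1 was not called (-0.26). The 8 severing genes counted 1 up and 5 down with a median of -0.55, where 66.5% of all genes were called. In this list Fignl2, Fign, Katnal2 and Katnal1 fell by 1.91 ± 0.21, 1.05 ± 0.23, 0.92 ± 0.19 and 0.71 ± 0.13.

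**Figure D4:**
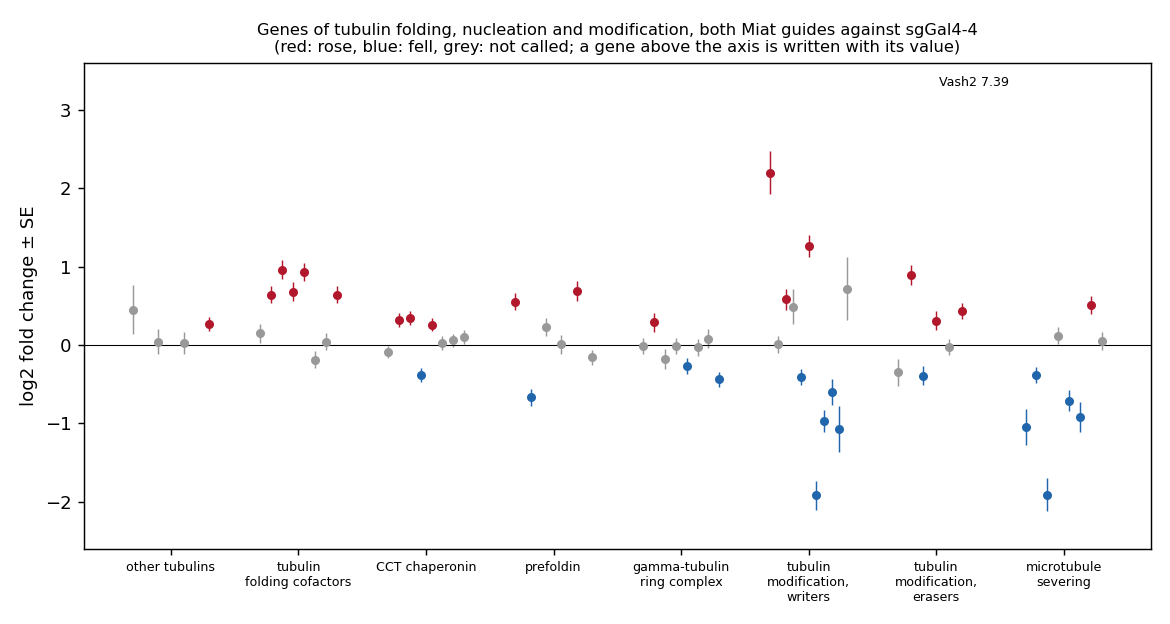
Log2 fold change with both Miat guides against sgGal4-4 for every tested gene of 8 lists, each point a gene with a bar of 1 SE, red for rises, blue for falls and grey for genes not called. Folding cofactors lie at or above -0.19, severing genes lie mostly under 0, and Vash2 (7.39) is written at the top because it lies above the axis.

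The genes with the pattern most like Tubb3 were sought by the smallest Euclidean distance of centred log2 CPM over the 6 libraries, among 10869 genes. Among the nearest were Tcea2, a transcription elongation factor gene (distance 0.398), and Slc38a3, an amino acid transporter gene (0.499). Tcea2 went from 0.0258 ± 0.0364 CPM to 2.71 ± 0.371 and 3.75 ± 1.46, and Slc38a3 from 7.54 ± 0.703 to 164.5 ± 11.3 and 241 ± 4.96 CPM (SD, n = 2 each). The genes nearest to Tubb5 were l7Rn6 (0.071), Aspscr1 (0.0875) and the histone gene H3f3b (0.0897), of which H3f3b went from 826 ± 3.91 to 1033 ± 28.5 and 1405 ± 85.1 CPM. With 6 libraries in 3 groups many genes share such a shape, and the distances are descriptions.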

How the data were processed

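Libraries were made from 1 µg of total RNA with an mRNA kit, per the labels' protocols. The submitters' processing notes name STAR and the builds GRCm38 and mm10. Not given in the sources used here are the version, counter, strand setting and annotation. A deposited table per library lists a whole-number count, an FPKM and a TPM for 33984 RefSeq transcript rows, per the file headers. The deposited FPKM served to recover transcript lengths and zeros, and the deposited TPM was not used. The FPKM was taken as count over length over the summed counts, and the lengths so implied agreed between libraries within 8.2e-10%. Of several transcripts per symbol, the one with most counts was used. The table of sgMiat-96 replicate 2 gives 1 count to 11223 transcripts whose FPKM is 0. These were set to 0, a departure from the counts as deposited.

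Counts were tested with edgeR 4.0.16 in R 4.3.3 (filterByExpr by group, TMM, quasi-likelihood test, 1 model of 3 groups with 3 residual degrees of freedom), and calls were made at a Benjamini-Hochberg adjusted p under 0.05 across 13219 genes. The comparison of both guides is the mean of the 2 Miat groups minus the control. The biological coefficient of variation was 0.0986. The SE is the absolute log2 fold change over the square root of F. Counting noise did not cover the differences between replicates (chi-square per gene 4.12, 19.1 and 14 for sgGal4-4, sgMiat-6 and sgMiat-96, where 1 is noise). In a library 3 counts correspond to 0.149 to 0.173 CPM. On simulated data with 13003 genes the same comparison of both guides recovered 73.3%, 93.8% and 100% of genes changed 1.5-fold, 2-fold and 4-fold, and in the data far more genes move than were simulated. Coordinates and transcript sequences come from GENCODE M21 on GRCm38, and sequences were aligned with Biopython 1.88. DESeq2 1.42.0 and limma 3.58.1 (voom) were alternatives. Named were the 10 members and up to 4 called genes of each related list by adjusted p, or all called genes for the writers. Also named were the 3 genes nearest to Tubb3 and to Tubb5 (mean of at least 2 CPM, 0.1 added before the log). Of the genes nearest to Tubb3, 1 is not reported here. Members and lists were chosen with earlier results of these data known.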

Additional observations from a re-analysis of the deposited data

Results flagged for a closer look

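For 7 tubulin genes the effect of the 2 Miat guides against the shared control differed, by the direct test of sgMiat-96 against sgMiat-6 in edgeR. The difference on the log2 scale was 1.30 for Tubb4a, 0.57 for Tuba1b, 0.52 for Tuba1c, 0.46 for Tuba1a, 0.43 for Tubb5, 0.41 for Tubb4b and 0.27 for Tubb6. The adjusted p ran from 0.00242 for Tuba1c to 0.0455 for Tubb6. In each case both sgMiat-96 libraries were above both sgMiat-6 libraries. The size of the difference depended on the processing. Over the reported fit and its alternatives, among them removal of the length trend, it ran from 0.06 to 0.32 for Tubb6 and 0.15 to 0.50 for Tubb4b. It ran from 0.20 to 0.65 for Tuba1a, 0.28 to 0.49 for Tubb5 and 0.30 to 0.71 for Tuba1b. For Tuba1c it ran from 0.36 to 0.57, and for Tubb4a from 1.13 to 1.47. The cause was not tested. Groups of 2 libraries are too small for a test of single outlying samples, and none was made.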

How the results depend on the processing

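The number of tubulin genes called stayed within 1.5 times the reported one for both guides (9 to 10) and for sgMiat-96 (9 to 10) against the control in all 15 alternatives. Leaving out 1 library at a time gave 5 to 9 genes for sgMiat-6 against the control and 2 to 7 between the guides, and 1124 to 5739 genes of all kinds between the guides. The lowest values came without sgGal4-4 replicate 1 and without sgMiat-96 replicate 1, and without sgMiat-6 replicate 1 there were 4 tubulin genes and 2251 genes of all kinds between the guides. A group left with 1 library is assumed to vary like the others. Total-count scaling gave 4 between the guides. The calls over all genes for both guides split into 4378 higher and 4415 lower with TMM, and 3583 higher and 5196 lower with total counts. Between the guides they split into 2361 and 2490, against 1380 and 3721. Total counts moved the median of all genes to -0.13 for both guides.

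For single genes, values that changed sign were all close to 0 and none of them was called. Between the guides Tubb2a was -0.06 with total counts and -0.16 with the length trend removed, and Tubb2b ran from -0.10 to 0.01 when 1 library was left out, with 0.00 without sgMiat-6 replicate 2 and 0.01 without sgMiat-96 replicate 2. With Tubb2a and Tubb2b summed, Tubb2b was 0.00 for both guides, 0.02 for sgMiat-96 and 0.03 between the guides, and Tubb2a was -0.01 for sgMiat-6. With the 3 Tuba1 genes summed, the sgMiat-6 value was 0.64 (edgeR adjusted p = 0.000763). Both sums were chosen after seeing the data.

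The neuronal share in sgGal4-4, sgMiat-6 and sgMiat-96 was 41.6%, 45.3% and 44.2% without division by length, 54.2%, 58.65% and 57.4% with Tubb4b as neuronal, and 42.0%, 46.5% and 46.3% with Tubb2a as general. In the control it was 49.0% with the length trend removed. Tubulin transcripts are short, with a median of 1734 bases against 2844 for genes tested. The cause was not tested.

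Replicate numbers showed little sign of a shared effect: deviations of same-numbered libraries correlated at 0.0103, -0.09 and -0.213. These values cannot tell whether same-numbered libraries were prepared together. With the replicate block 10, 8, 10 and 6 tubulin genes were called for both guides, sgMiat-6, sgMiat-96 and between the guides, against 10, 9, 10 and 7. The calls lost were Tuba1b for sgMiat-6 (edgeR adjusted p = 0.0718) and Tubb6 between the guides (adjusted p = 0.106). The counts of all genes were 8343, 6445, 8562 and 4044.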
